A study of Mus musculus with 25 samples.

Results

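The genes described here are 9: the chemokines Cxcl9, Cxcl10, Cxcl16, Ccl3, Ccl4, Ccl5 and Xcl1 and the receptors Cxcr3 and Cxcr6. They were taken by symbol from a count table of 55450 genes, in which all 9 were found, and all 9 passed the filter on low counts. Their RNA was measured in 25 implanted tumours of B2905, a mouse melanoma line also called M4, grown in C57BL/6 mice, with 1 library per tumour. All treated mice received antibody at 10 mg/kg once tumours averaged 75 mm3. The 5 controls received isotype IgG2b, and the other 20 tumours received anti-CTLA-4, an antibody against a receptor that restrains T cells. The labels sort these 20 by their change in size 10 to 11 days from the final dose, into 8 that shrank (responders), 6 that held their size (stable) and 6 that grew (non-responders). The study gave anti-CTLA-4 to 30 mice, and 20 tumours of this arm are in these data, so the group sizes do not give the outcome of all treated mice. All tumours come from 1 cell line, and the 5 untreated mice of the study were not analysed here. Tumours are named by group and a number that follows record order and pairs nothing.

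Chemokines are small secreted proteins that draw cells bearing the matching receptor. CXCL9 and CXCL10 are induced by interferon gamma, often in macrophages and dendritic cells, and act on CXCR3 of activated T cells and natural killer cells. CXCL16 is made as a membrane-anchored protein, which ADAM proteases can shed, and binds CXCR6 on effector and tissue-resident T cells. CCL3, CCL4 and CCL5 draw T cells and monocytes, and CCL3 and CCL5 act on CCR1. XCL1 comes from activated T cells and natural killer cells and binds XCR1 on cross-presenting dendritic cells. In bulk tumours, more cells of a type and more RNA per cell cannot be told apart.

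The genes lie on 5 chromosomes (GENCODE release 21, GRCm38). Cxcl9 (chr5:92321347-92328079) and Cxcl10 (chr5:92346638-92348889) are neighbours on the minus strand, 18.6 kb apart. Ccl3 (chr11:83647844-83649355) and Ccl4 (chr11:83662584-83664683) lie 13.2 kb apart, and Ccl5 (chr11:83525778-83530518) lies 117.3 kb from Ccl3. Cxcl16 is at chr11:70453983-70459984, Cxcr6 at chr9:123806475-123811760, Cxcr3 at chrX:101731535-101734269 and Xcl1 at chr1:164931644-164935527. Genes on the opposite strand overlap 4 of them: Art3 overlaps Cxcl10, Zmynd15 overlaps Cxcl16, Fyco1 overlaps Cxcr6 and Gm20743 overlaps Xcl1. The strand setting of the counting is not given in the sources used here, so values of these 4 genes may include reads of the overlapping gene.

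The set of RefSeq (GRCm38.p6) start sites used here held 6 of the 9 genes. The 250 bases before the start of the neighbours Cxcl9 and Cxcl10 are shown because these ligands of the same receptor differed in how far they stood above controls. Both run 5′ to 3′ on the minus strand, Cxcl9 at chr5:92328080-92328329 and Cxcl10 at chr5:92348890-92349139, with matches to the searched patterns in capitals.
Cxcl9: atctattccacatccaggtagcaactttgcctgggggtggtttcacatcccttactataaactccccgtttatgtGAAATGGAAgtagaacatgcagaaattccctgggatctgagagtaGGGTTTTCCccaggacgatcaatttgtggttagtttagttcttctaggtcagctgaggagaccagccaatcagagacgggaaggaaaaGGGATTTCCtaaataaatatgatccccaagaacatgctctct
Cxcl10: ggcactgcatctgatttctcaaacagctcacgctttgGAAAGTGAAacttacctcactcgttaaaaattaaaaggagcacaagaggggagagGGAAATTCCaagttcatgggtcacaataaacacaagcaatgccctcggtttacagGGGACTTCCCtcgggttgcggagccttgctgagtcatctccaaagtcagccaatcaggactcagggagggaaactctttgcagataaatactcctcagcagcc
The patterns were searched on both strands, each in a form of 9 letters. GAAANNGAA, from the interferon-stimulated response element, was found once in Cxcl9 (175 bases before the start), once in Cxcl10 (213 bases) and once in Ccl3 (39 bases). GGANNNNCC, from the binding pattern of NF-kappa-B, was found at 130 and 42 bases in Cxcl9, at 158 bases in Cxcl10, and there at 103 and 102 bases as overlapping matches. TTCNNNGAA, the interferon gamma activated pattern, was in none of the 6 windows. Of 32851 windows of this length, 7.13% held the first pattern, 42.3% the second and 7.02% the third, so a match to the second is common. No match to one pattern overlapped a match to another. A match is a description of letters, and its absence says only that these letters are not in this window.

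Libraries held 8.76 to 34.3 M counts. Protein-coding genes took 82.9 to 89.2% of counts in controls, stable tumours and non-responders but 23.8 to 87.0% in responders. Responder 1 was lowest and responder 5 highest, and the part of this difference in the results was tested only as a covariate. The labels number the libraries group by group, so processing order cannot be told apart from group. Levels are counts per M counts (CPM) after TMM scaling. A gene is called where edgeR's quasi-likelihood test gave an adjusted p (Benjamini-Hochberg over 18031 genes) under 0.05.

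All 9 genes were higher across the anti-CTLA-4 tumours than in controls, and most of them also in each outcome group. In stable tumours 9 of 9 were called higher, against a background of 22.2% of all genes tested called higher. In responders 8 of 9 were called higher (background 36.1%), and in non-responders 7 of 9 (background 10.6%). For all anti-CTLA-4 tumours together, with the outcome groups weighted equally, 9 of 9 were called (background 27.7%), with log2 fold changes from 0.98 (Cxcr3) to 3.94 (Cxcr6). The median log2 fold change of the 9 genes was 3.73 in stable tumours, 2.90 in responders and 2.01 in non-responders. Over all genes the medians were 0.02, 0.16 and 0.04. All tumours of the group lay above all controls for 8 genes in stable tumours (18.4% of all genes tested), 6 in responders (14.9%) and 3 in non-responders (2.67%). These comparisons share the same 5 controls.

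**Figure D1:**
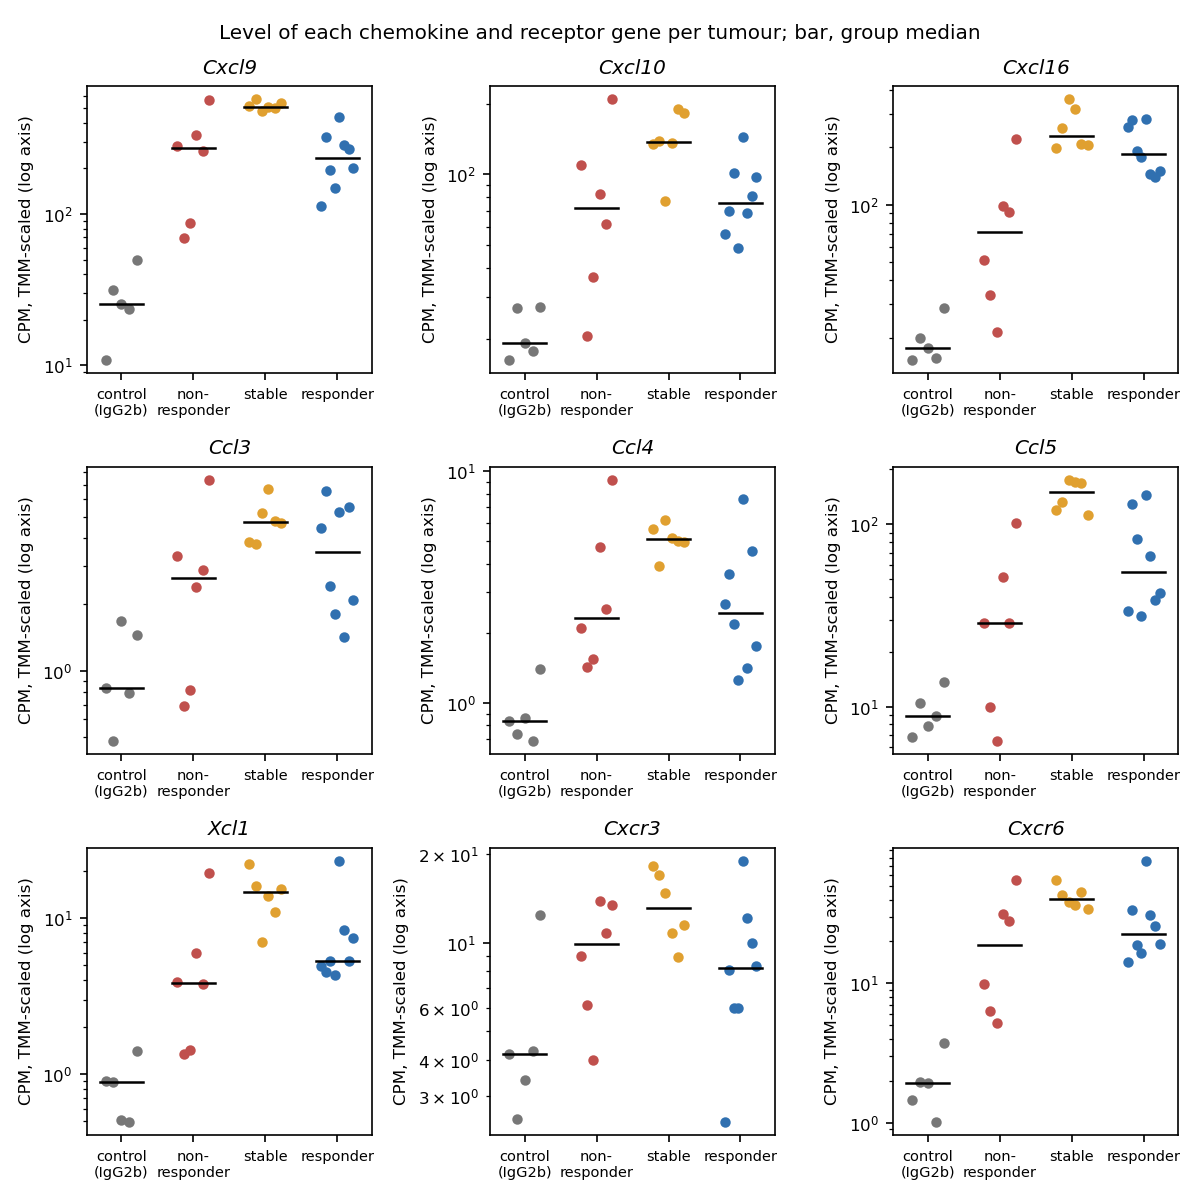
Level of each gene in every tumour, in CPM after TMM scaling on a log axis, with 1 point per tumour and a bar at the group median. Stable tumours lie close together for Cxcl9 (481 to 573 CPM), while non-responders spread from 69.0 to 563 CPM.

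Between outcome groups few of the 9 differed. Responders and non-responders differed in 1 gene, Cxcl16, which was higher in responders (background 25.2% called higher). Stable tumours exceeded non-responders in 2 genes, Cxcl16 and Ccl5 (background 7.08%). Responders were below stable tumours in 1 gene, Cxcl9 (background 17.8% called lower). For responders against non-responders and for responders against stable tumours, 1 of 9 is a smaller share than the background. No gene had every responder above every non-responder, where 2.07% of all genes did. In stable against non-responder tumours, Ccl5 alone had no overlap (2.07% of all genes with all stable tumours above). In responders against stable tumours, Cxcl9 alone had none (0.288% of all genes with all responders below).

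Cxcl9 stood at 10.9, 31.4, 25.4, 23.5 and 49.8 CPM in controls 1 to 5. It ranged from 69.0 to 563 CPM in non-responders (median 270), from 481 to 573 in stable tumours (median 510) and from 112 to 437 in responders (median 235). Every anti-CTLA-4 tumour was above every control, and every responder was below every stable tumour. The log2 fold change against controls was 4.20 ± 0.49 (SE) in stable tumours (adjusted p = 9.83e-07), 3.24 ± 0.46 in non-responders (adjusted p = 0.000436) and 3.13 ± 0.45 in responders (adjusted p = 3.83e-06). Responders fell below stable tumours by a log2 fold change of -1.07 ± 0.37 (adjusted p = 0.0259). That call was lost without responder 1 (-0.95, adjusted p = 0.0501) or responder 4 (-0.99, adjusted p = 0.0511), and on adjustment for the protein-coding share (-0.56, adjusted p = 0.590). Responders and non-responders gave -0.11 ± 0.37 (adjusted p = 0.825), and stable minus non-responder tumours gave 0.96 ± 0.40 (adjusted p = 0.106).

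Cxcl10 was at 16.2, 27.0, 19.1, 17.7 and 27.3 CPM in controls. Non-responders ranged from 20.6 to 209 CPM (median 72.2), stable tumours from 76.9 to 189 (median 138) and responders from 48.6 to 144 (median 75.7). Only non-responder 2 overlapped the controls. Cxcl10 was higher than in controls by 2.74 ± 0.43 on the log2 scale in stable tumours (adjusted p = 1.84e-05), 2.01 ± 0.41 in non-responders (adjusted p = 0.00198) and 1.96 ± 0.40 in responders (adjusted p = 0.000187). No outcome groups were called different, the nearest being responders minus stable tumours (-0.78 ± 0.35, adjusted p = 0.0773), which passed under 4 alternatives (adjusted p 0.0293 to 0.0420). Stable minus non-responder tumours gave 0.72 ± 0.37 (adjusted p = 0.200), and responders minus non-responders gave -0.05 ± 0.35 (adjusted p = 0.909). Cxcl11, the other interferon-inducible ligand of CXCR3, was at 0.216 to 4.06 CPM in these tumours and was called in none of the 7 comparisons.

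Cxcr3, their receptor, was the member nearest to control levels. Controls stood at 4.17, 2.51, 3.40, 4.27 and 12.4 CPM, where control 5 lies apart from the other 4. Non-responders ranged from 4.00 to 13.8 CPM (median 9.87), stable tumours from 8.91 to 18.2 (median 13.1) and responders from 2.45 to 18.9 (median 8.17), with as few as 11 counts in a responder library. All 3 outcome groups overlapped the controls. Of the outcome groups only the stable tumours were called higher (1.34 ± 0.42, adjusted p = 0.0125). Responders gave 0.77 ± 0.40 (adjusted p = 0.0927), called without control 5 (1.33, adjusted p = 0.00489), without responder 1 (0.89, adjusted p = 0.0423) or on adjustment for the protein-coding share (1.55, adjusted p = 0.00713). Non-responders gave 0.84 ± 0.42 (adjusted p = 0.188), called without control 5 (1.40, adjusted p = 0.0223). Among outcome groups Cxcr3 gave -0.07 ± 0.37 in responders minus non-responders, -0.57 ± 0.36 in responders minus stable tumours and 0.50 ± 0.39 in stable minus non-responder tumours (adjusted p = 0.890, 0.215 and 0.417). Over all anti-CTLA-4 tumours the fold change was 0.98 ± 0.36 (adjusted p = 0.0272). That call was lost without any one of controls 1 to 4 (0.80 to 0.91, adjusted p 0.0727 to 0.0900) and with no filter on low counts (0.86, adjusted p = 0.0687).

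Cxcl16 was at 15.3, 19.8, 17.7, 15.6 and 28.6 CPM in controls. It ranged from 21.4 to 222 CPM in non-responders (median 71.5), from 199 to 359 in stable tumours (median 230) and from 139 to 281 in responders (median 184). Non-responder 6, at 222 CPM, lay among the stable tumours and responders, and the other 5 lay below all of them. Cxcl16 was higher than in controls by 3.73 ± 0.44 in stable tumours (adjusted p = 1.21e-06), 3.39 ± 0.43 in responders (adjusted p = 8.11e-07) and 2.16 ± 0.41 in non-responders (adjusted p = 0.00117). It exceeded the non-responder level by 1.23 ± 0.36 in responders (adjusted p = 0.00761) and by 1.57 ± 0.38 in stable tumours (adjusted p = 0.00844). Responders minus stable tumours gave -0.34 ± 0.34 (adjusted p = 0.439). Adjusted for the protein-coding share, the difference between responders and non-responders was 1.21 (adjusted p = 0.0689), and no member was then called between responders and non-responders.

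Cxcr6, the receptor of CXCL16, had the largest fold change of the 9 in every comparison with controls, in the edgeR fit. Controls stood at 1.47, 1.95, 1.92, 1.01 and 3.72 CPM. Non-responders ranged from 5.20 to 55.1 CPM (median 18.9), stable tumours from 34.3 to 55.4 (median 40.6) and responders from 14.3 to 75.5 (median 22.5). No anti-CTLA-4 tumour overlapped the controls. The log2 fold change was 4.41 ± 0.59 in stable tumours (adjusted p = 3.63e-06), 3.89 ± 0.57 in responders (adjusted p = 4.54e-06) and 3.51 ± 0.57 in non-responders (adjusted p = 0.000490). Responders minus non-responders gave 0.38 ± 0.44 (adjusted p = 0.487), responders minus stable tumours -0.51 ± 0.43 (adjusted p = 0.356) and stable minus non-responder tumours 0.89 ± 0.47 (adjusted p = 0.210).

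Ccl3 and Ccl4 were among the lowest of the 9, with Xcl1 as low in controls. Ccl3 was at 0.833, 0.479, 1.68, 0.794 and 1.45 CPM in controls, which rests on 13 to 43 counts a library. It ranged from 0.691 to 7.34 CPM in non-responders, from 3.75 to 6.66 in stable tumours and from 1.42 to 6.51 in responders, and responders and non-responders overlapped controls. Ccl3 was higher than in controls in stable tumours (2.20 ± 0.51, adjusted p = 0.00125) and responders (1.82 ± 0.49, adjusted p = 0.00255). Non-responders were at 1.47 ± 0.50 (adjusted p = 0.0520), which passed under 9 alternatives, DESeq2 among them (1.43, adjusted p = 0.0248). Responders minus non-responders gave 0.34 ± 0.43, responders minus stable tumours -0.38 ± 0.43 and stable minus non-responder tumours 0.73 ± 0.46 (adjusted p = 0.524, 0.491 and 0.304).

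Ccl4 stood at 0.833, 0.737, 0.861, 0.685 and 1.40 CPM in controls (20 to 27 counts). It ranged from 1.43 to 9.17 CPM in non-responders (median 2.32), from 3.90 to 6.19 in stable tumours (median 5.08) and from 1.26 to 7.59 in responders (median 2.44). Stable tumours and non-responders lay above all controls, as did 7 of the 8 responders. Responder 4 did not, at 1.26 CPM on 9 counts. The fold changes were 2.51 ± 0.49 in stable tumours (adjusted p = 0.000191), 2.00 ± 0.48 in non-responders (adjusted p = 0.00629) and 1.81 ± 0.46 in responders (adjusted p = 0.00148). In the same 3 comparisons among outcome groups Ccl4 gave -0.18 ± 0.40, -0.70 ± 0.40 and 0.52 ± 0.42 (adjusted p = 0.717, 0.162 and 0.448), so none was called for Ccl3 or Ccl4.

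Ccl5 was at 6.83, 10.5, 7.83, 8.93 and 13.7 CPM in controls. Non-responders ranged from 6.49 to 102 CPM (median 28.8), stable tumours from 112 to 175 (median 150) and responders from 31.4 to 145 (median 54.7). All stable tumours were above all non-responders, and non-responders 2 and 3 lay within the controls or below them. Ccl5 was higher than in controls by 3.94 ± 0.58 in stable tumours (adjusted p = 1.04e-05), 2.90 ± 0.54 in responders (adjusted p = 7.1e-05) and 1.99 ± 0.53 in non-responders (adjusted p = 0.0136). The last call was lost without non-responder 6 (1.40, adjusted p = 0.0579) and with the fit restricted to these 2 groups (1.97, adjusted p = 0.0621). Stable tumours exceeded non-responders by 1.95 ± 0.49 (adjusted p = 0.0114). Responders lay between the other 2 groups, at 0.91 ± 0.46 against non-responders (adjusted p = 0.0988) and -1.04 ± 0.44 against stable tumours (adjusted p = 0.0656). The latter passed under 7 alternatives (adjusted p 0.0229 to 0.0479).

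Xcl1 was at 0.900, 0.884, 0.509, 0.493 and 1.40 CPM in controls (13 to 27 counts). Non-responders ranged from 1.34 to 19.3 CPM (median 3.84), stable tumours from 7.02 to 22.1 (median 14.6) and responders from 4.33 to 23.2 (median 5.32). Responder 5, at 23.2 CPM, was far above the other 7 responders. Xcl1 was higher than in controls by 4.09 ± 0.65 in stable tumours (adjusted p = 2.09e-05), 3.27 ± 0.61 in responders (adjusted p = 7.45e-05) and 2.85 ± 0.62 in non-responders (adjusted p = 0.00288). No outcome groups were called different, with 0.42 ± 0.49 in responders minus non-responders, -0.82 ± 0.48 in responders minus stable tumours and 1.25 ± 0.53 in stable minus non-responder tumours (adjusted p = 0.488, 0.177 and 0.113). Xcr1, the receptor on dendritic cells, was also higher in all 3 outcome groups than in controls. Its log2 fold changes were 2.22, 1.18 and 1.52 in stable tumours, responders and non-responders (adjusted p = 0.000740, 0.0273 and 0.0347). It was lower in responders than in stable tumours (-1.04 ± 0.41, adjusted p = 0.0475), where 17.8% of all genes were called lower. Xcr1 had as few as 4 counts in a responder library, and its value adjusted for the protein-coding share is not given here.

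**Figure D2:**
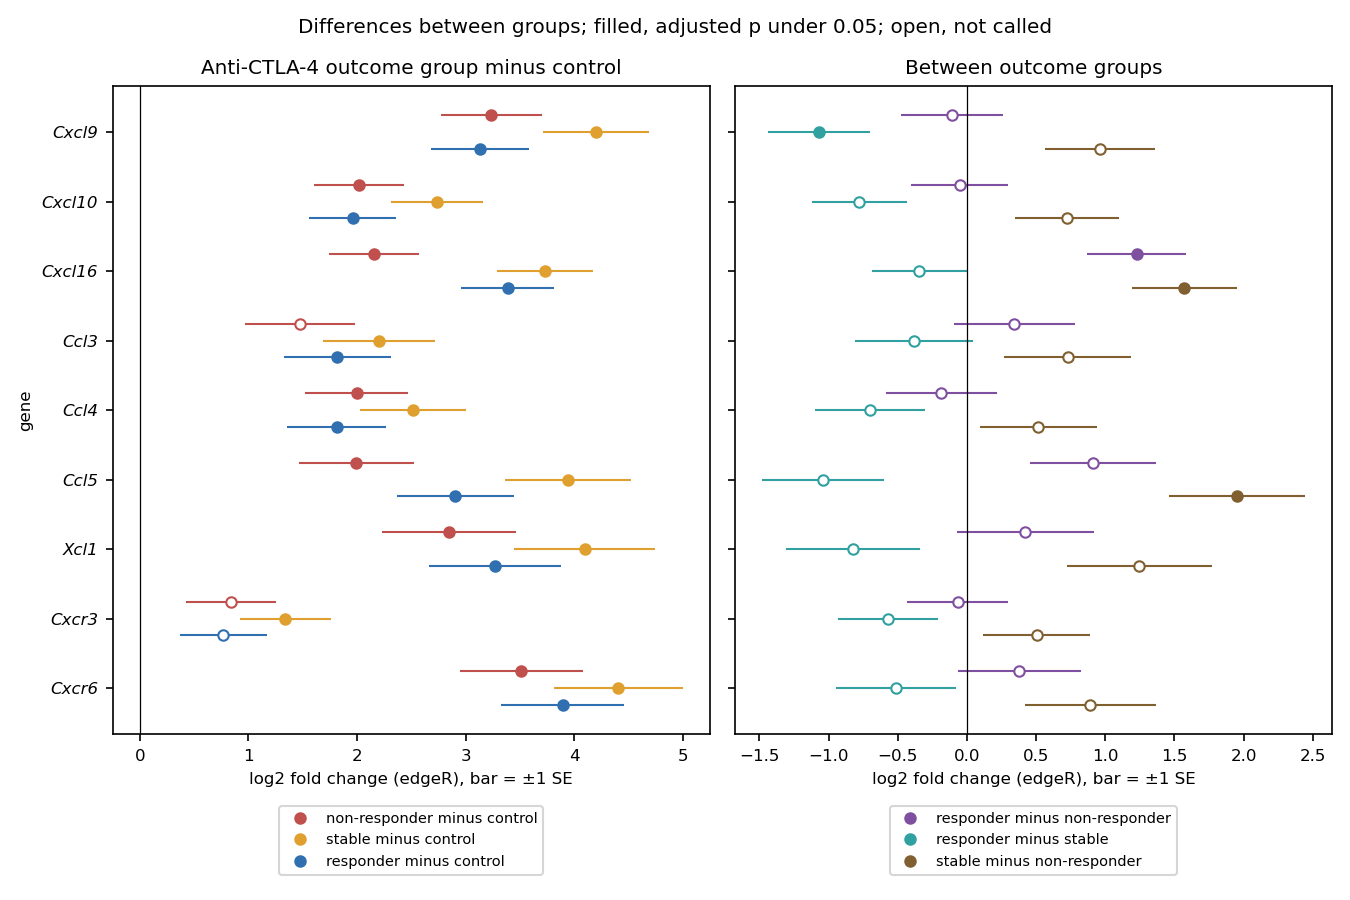
Log2 fold changes with 1 SE for each gene, on the left against controls and on the right between outcome groups. Filled points are called and open points are not. Of 9 genes, 9 are called in stable tumours, 8 in responders and 7 in non-responders, and 1, 1 and 2 in the comparisons between outcome groups.

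Single tumours moved the counts of calls among outcome groups. Non-responder 6 was the highest non-responder for 8 of the 9 genes, Cxcr3 being the other. Without it, 7 of 9 genes were called in stable over non-responder tumours instead of 2 (11.1% of all genes then, 7.08% with it). In responders over non-responders 3 were then called instead of 1 (Cxcl16, Ccl5 and Xcl1), with 24.5% of all genes against 25.2%. Responder 5 was the highest responder for 8 of 9 genes, Ccl3 being the other. Without it, 5 of 9 genes were called lower in responders than in stable tumours instead of 1 (24.4% of all genes then, 17.8% with it).

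Levels were ranked between genes by the deposited RPKM, which is per gene length. In stable tumours Ccl5 (153 to 228 RPKM) and Cxcl9 (165 to 201 RPKM) led and overlapped each other, followed by Cxcl16 (median 120 RPKM) and Cxcl10 (92.8 RPKM), which also overlapped. In responders Cxcl9 (98.1), Cxcl16 (91.7), Ccl5 (86.2) and Cxcl10 (57.0 RPKM) were the top 4, each overlapping the next. In controls Cxcl10 (14.0), Ccl5 (12.0), Cxcl9 (9.58) and Cxcl16 (7.94 RPKM) led, and the 5 remaining genes had medians of 0.992 to 1.71 RPKM. In non-responders every gene overlapped its neighbour in the order. The RPKM of Ccl3 relative to its CPM varied by 2.14 times over tumours, Ccl4 by 1.89 and Cxcr6 by 1.87, so the order among the lowest genes is loose.

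Ligand and receptor levels were next compared tumour by tumour. Deviations of log2 CPM from the group mean were correlated over 25 tumours for 9 ligand and receptor pairs, with p from permutations within groups and adjusted over the 9, and 6 of them are described. All 6 were positively correlated, with r from 0.45 to 0.78. Cxcl16 with Cxcr6 had r = 0.78 (rho = 0.62, permutation p = 0.00084) and Ccl5 with Ccr1 had r = 0.75 (rho = 0.75, permutation p = 0.00011). Cxcl9 with Cxcr3 had r = 0.72 (rho = 0.70, permutation p = 0.00027), while Cxcl10 with the same receptor had r = 0.45 (rho = 0.39, permutation p = 0.0252 for r and 0.0810 for rho). Xcl1 with Xcr1 had r = 0.67 (permutation p = 0.00021) and Ccl3 with Ccr1 had r = 0.53 (permutation p = 0.0219). All 6 had adjusted p under 0.05 for r. Cxcr6 also followed ligands that are not its partner. Its r was 0.86 with Cxcl9, 0.69 with Cxcl10, 0.84 with Xcl1, 0.85 with Ccl5 and 0.63 with Ccl3. Each of these is above the r of that ligand with the receptor paired with it above. Cxcl16 went the other way, with r = 0.43 for Cxcr3. Whether a ligand follows its own receptor more closely than other receptors was not tested.

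Leaving out the 2 tumours farthest from the ligand's median left 4 of these 6 pairs past the threshold. Cxcl10 with Cxcr3 (r = 0.43, adjusted permutation p = 0.0687) and Ccl3 with Ccr1 (r = 0.40, adjusted permutation p = 0.103) no longer passed, although r moved little for the former. Within single groups, 3 of the 18 tests of these pairs passed by Pearson's r with exact permutation p, and 0 by Spearman's rho (5 at an unadjusted exact p under 0.05, lowest adjusted p 0.075): Cxcl9 with Cxcr3 (r = 0.92) and Ccl5 with Ccr1 (r = 0.88) in responders, and Cxcl16 with Cxcr6 (r = 0.98) in non-responders. In stable tumours none of the 6 passed, with r from -0.51 for Cxcl10 with Cxcr3 to 0.76 for Ccl3 with Ccr1. Controls were too few for this.

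**Figure D3:**
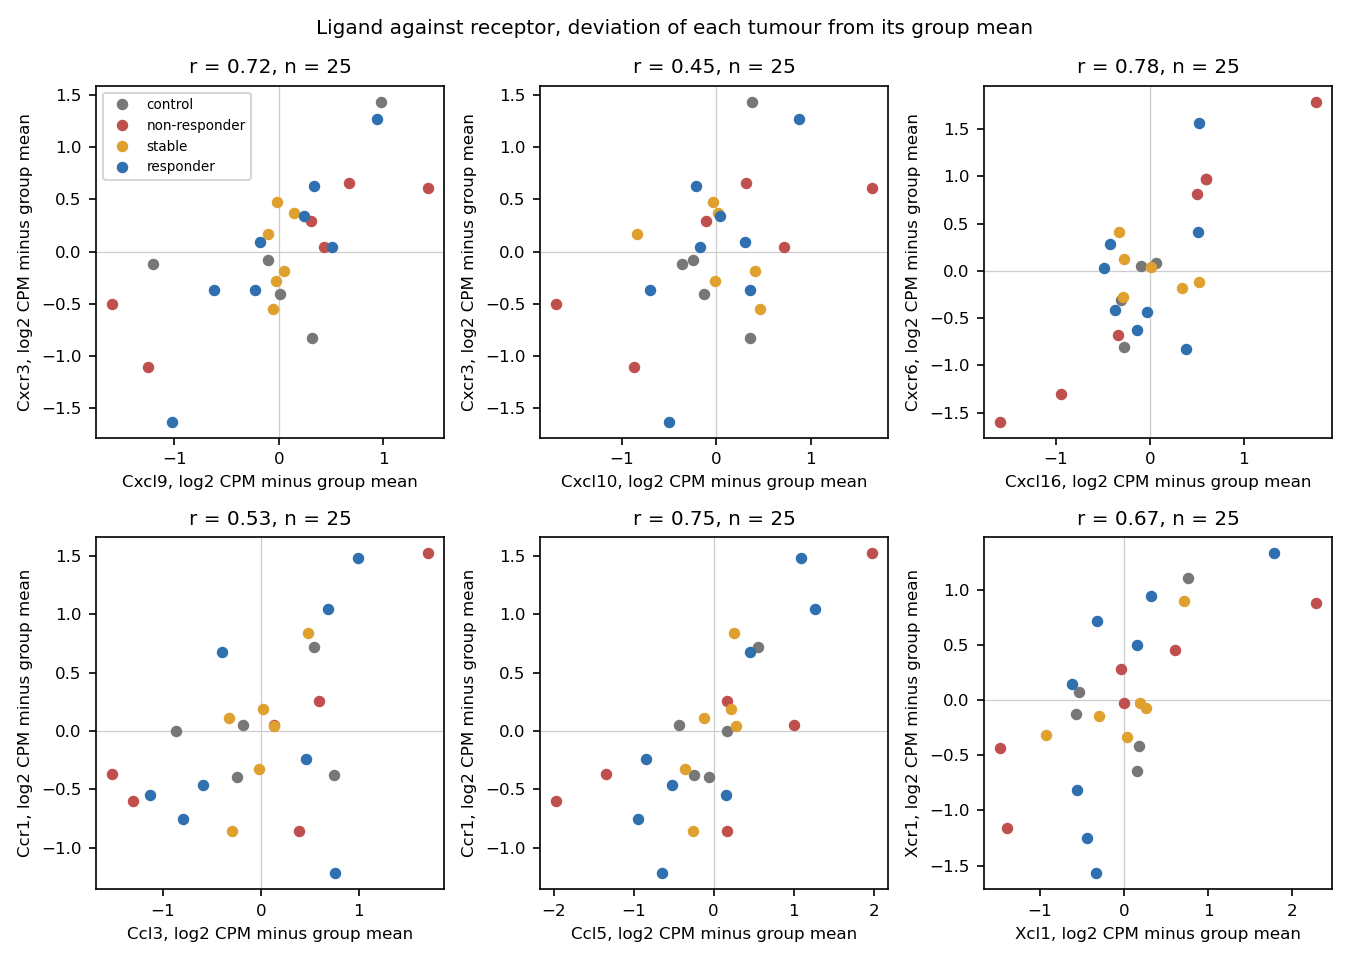
Deviation of each tumour from its group mean for 6 ligand and receptor pairs, in log2 CPM, coloured by group. Pearson's r over 25 tumours runs from 0.45 for Cxcl10 with Cxcr3 to 0.78 for Cxcl16 with Cxcr6.

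Cell type markers moved with these levels. The summed level of 5 T cell markers was 43.1 to 129 CPM (responders), 75.1 to 114 (stable), 11.5 to 94.8 (non-responders) and 4.19 to 13.5 (controls). All 5 were called higher than in controls in each outcome group (background 36.1%, 22.2% and 10.6% in this order). For 5 macrophage markers the ranges in the same order were 638 to 1898, 1388 to 2239, 513 to 1494 and 379 to 667 CPM, and 4, 5 and 3 of 5 were called higher. All 4 natural killer cell markers were called higher in each outcome group, as were 4, 4 and 3 of 4 markers of cross-presenting dendritic cells and 2, 3 and 2 of 3 fibroblast markers. The 3 endothelial markers Pecam1, Cdh5 and Kdr went the other way, summing to 36.1 to 85.0 CPM (responders), 66.3 to 118 (stable), 116 to 227 (non-responders) and 111 to 159 (controls). Their median log2 fold change against controls was -1.435 in responders, -0.77 in stable tumours and 0.20 in non-responders. Over all genes the medians were 0.16, 0.02 and 0.04. In responders minus non-responders the endothelial median was -1.53, against 0.05 over all genes. No T cell, macrophage or natural killer cell marker was at 0 throughout a group. The part of these markers in the levels of the 9 genes was not tested beyond the ratios and the marker-removed correlations given here. The melanocyte markers Mlana, Tyr, Dct, Pmel and Sox10 summed to 181 to 480 CPM (responders), 127 to 281 (stable), 378 to 10140 (non-responders) and 7658 to 12760 (controls). Deviations of Cxcr6 followed the mean of Cd3d, Cd3e and Cd3g at r = 0.94, and those of Ccl5 followed the mean of Csf1r, Cd68 and Adgre1 at r = 0.90, over the same 25 libraries.

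When the mean of Cd3d, Cd3e and Cd3g was removed from both members of a pair, 1 of the 6 pairs stayed past the threshold, Ccl5 with Ccr1 (r = 0.80, adjusted permutation p = 0.00018). Cxcl16 with Cxcr6 then had r = 0.28 (adjusted permutation p = 0.315) and Cxcl9 with Cxcr3 0.21 (adjusted permutation p = 0.406). When the mean of the 3 macrophage genes was removed, 2 of the 6 stayed: Xcl1 with Xcr1 (r = 0.63) and Cxcl9 with Cxcr3 (r = 0.51, adjusted permutation p = 0.0380). Both of these were chosen after the data had been seen.

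**Figure D4:**
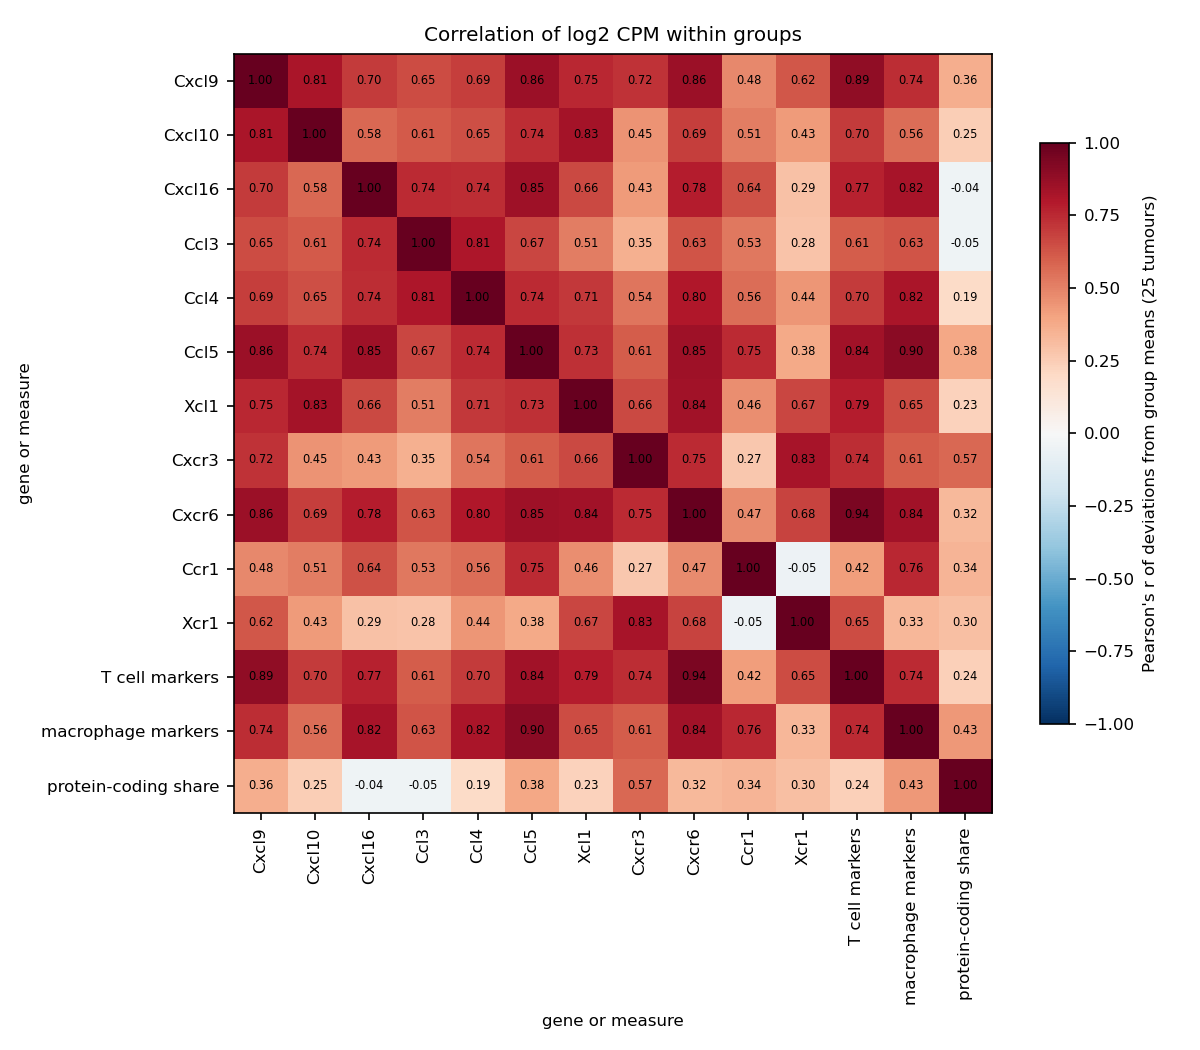
Pearson's r between deviations from the group mean in log2 CPM, for the 9 genes, 2 further receptors, the marker means and the protein-coding share of the library, over 25 tumours. Cxcr6 follows the T cell marker mean at 0.94, and Cxcl16 is near 0 with the protein-coding share (-0.04).

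Library scaling cancels in ratios within a tumour except through the prior count of 2, which weighs most where counts are low. Of 12 ratios in 6 comparisons, 30 of 72 passed an exact permutation test after adjustment over the 72. Cxcr6 to the T cell markers in responders minus controls passed (0.41, exact permutation adjusted p = 0.0354). With a prior count of 0.5 it did not (0.38, exact permutation adjusted p = 0.0623). Nor did it with Cd3e alone as the reference (0.016, exact permutation adjusted p = 0.99) or on log2(RPKM + 0.1) (0.093, exact permutation adjusted p = 0.65). Of 25 fits that each left out a single tumour, 7 also lost this call. The size of this difference thus depended on the reference and the measure. The ratio of Cxcr3 to the T cell markers had a log2 mean of -0.75 ± 0.51 in responders (SD, n = 8), -0.34 ± 0.31 in stable tumours (n = 6), 0.34 ± 0.56 in non-responders (n = 6) and 1.78 ± 0.74 in controls (n = 5). Responders were below controls by -2.53 and below non-responders by -1.09 (exact permutation adjusted p = 0.00917 for both), and 6 of the 8 lay under the whole non-responder range. The ratio of Cxcr6 to Cxcr3 went the other way, with means of 1.69 ± 0.45 (responders), 1.66 ± 0.36 (stable), 0.86 ± 0.79 (non-responders) and -1.25 ± 0.67 (controls). All tumours of each outcome group were above all controls (exact permutation adjusted p = 0.00917 for each).

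The log2 ratio of Cxcl9 to Cxcl10 had means of 1.52 ± 0.49 (responders), 1.91 ± 0.44 (stable), 1.64 ± 0.34 (non-responders) and 0.26 ± 0.53 (controls), each with its SD. Every anti-CTLA-4 tumour was above every control (exact permutation adjusted p = 0.00917 for each group), so Cxcl9 stood further above controls than its neighbour. None of the 3 comparisons among outcome groups passed for this ratio. Cxcl16 relative to the macrophage markers had means of 0.65 ± 0.46 (responders), -0.03 ± 0.10 (stable), -0.79 ± 0.56 (non-responders) and -1.64 ± 0.11 (controls). Here responders were above non-responders by 1.44 (exact permutation adjusted p = 0.00917) and above stable tumours by 0.68 (exact permutation adjusted p = 0.0147), although the level of Cxcl16 itself was not higher in responders than in stable tumours. With Csf1r alone as the reference, the second difference was 0.32 (exact permutation adjusted p = 0.144).

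Ccl5 relative to the T cell markers was 3.12 ± 0.47 in stable tumours, above 1.89 ± 0.44 in non-responders (difference 1.23, exact permutation adjusted p = 0.0156) and 2.19 ± 0.54 in responders (responders minus stable tumours -0.93, exact permutation adjusted p = 0.0240). In controls it was 2.80 ± 0.48, above non-responders by a margin that passed (-0.91, exact permutation adjusted p = 0.0240). It no longer did without control 1 (adjusted p = 0.0536) or control 4 (0.0571), or with Cd3e alone as the reference (-0.71, adjusted p = 0.159), by the same exact permutation test. Ccl4 relative to the same markers was lower in responders than in non-responders (-1.03, exact permutation adjusted p = 0.0317), but leaving out 9 of the 14 tumours one at a time each took this past 0.05 (adjusted p 0.0503 to 0.0797).

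**Figure D5:**
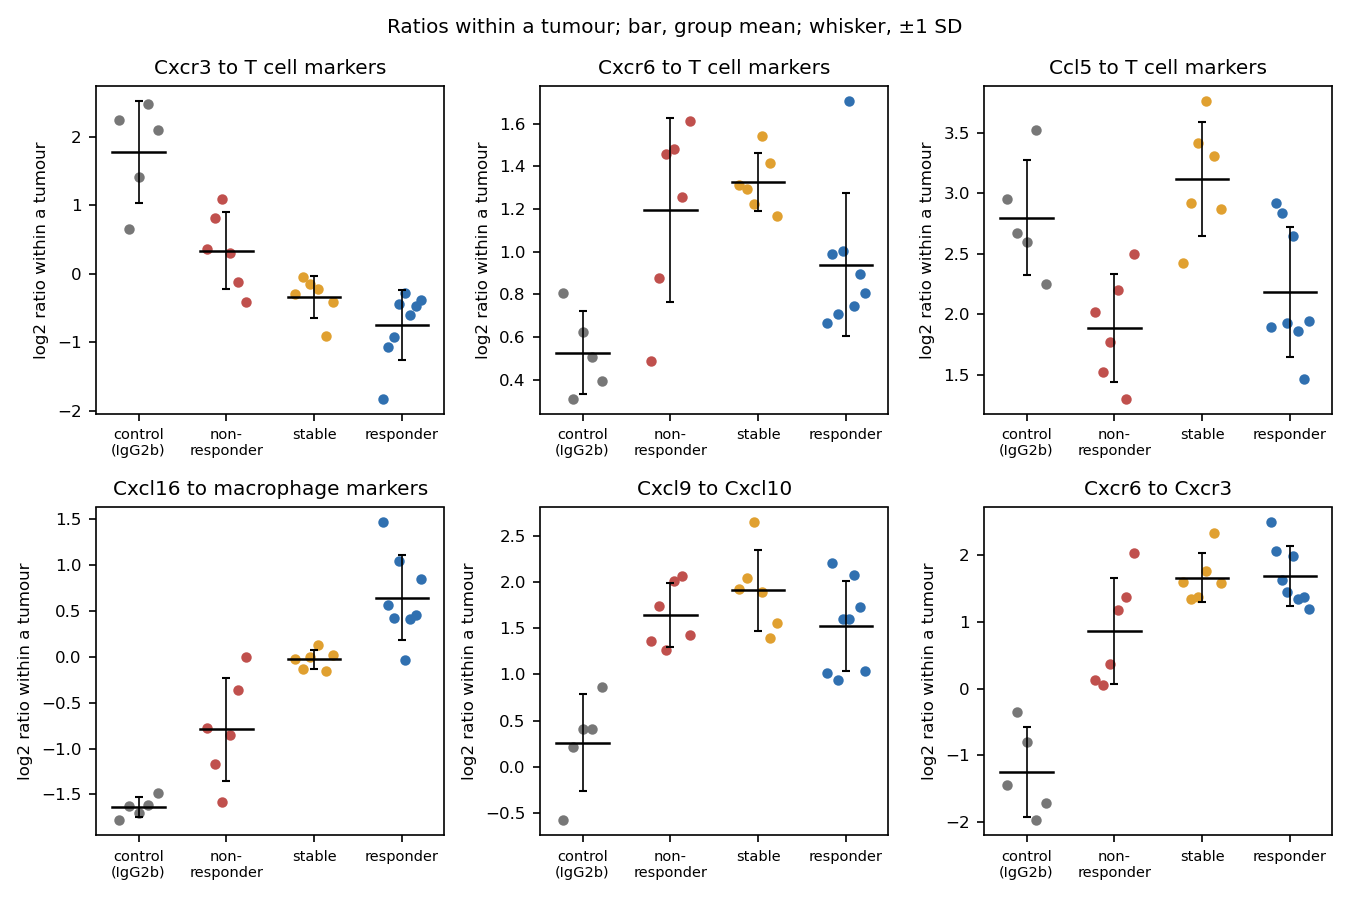
Log2 ratio within a tumour for 6 of the 12 ratios, with 1 point per tumour, the group mean as a bar and 1 SD as a whisker. Cxcr3 relative to T cell markers steps down from controls (mean 1.78) to responders (mean -0.75), and Cxcl16 relative to macrophage markers steps up (-1.64 to 0.65).

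Other genes of the chemokine system were counted from a list of 33, of which 32 were tested. In stable tumours 28 were called higher than in controls (22.2% of all genes tested), at a median log2 fold change of 2.03 (0.02 over all genes). In responders 24 were higher (36.1%), and in non-responders 18 were higher (10.6%). Adam10, a protease that sheds CXCL16, was called lower in responders than in controls (-0.51 ± 0.13, adjusted p = 0.00194). It is named after its value was seen, and the share of all genes called lower is not given here. Among 10 other receptors, 10, 9 and 7 were higher in stable tumours, responders and non-responders, against the same backgrounds. Ccr1, a receptor of CCL3 and CCL5, was higher than in controls in stable tumours (2.15 ± 0.48, adjusted p = 0.000853) and responders (1.76 ± 0.46, adjusted p = 0.00179), while non-responders gave 0.80 ± 0.46 (adjusted p = 0.259). Stable tumours exceeded non-responders in Ccr1 too (1.35 ± 0.44, adjusted p = 0.0398). Ccr8 was higher by 3.60, 3.62 and 2.56, and Ccr4 by 3.07, 2.90 and 2.22 in these groups. These fold changes rest on 2 to 13 counts a control library for Ccr8 and 2 to 11 for Ccr4. In responders minus non-responders 3 of these 10 receptors were called higher, with 25.2% of all genes tested. Cxcr4 (1.31 ± 0.34, adjusted p = 0.00364) and Ccr8 (1.07 ± 0.44, adjusted p = 0.0465) were among them.

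Among inducers, Ifng, the gene of interferon gamma, was at 0.0333 to 0.517 CPM in controls, which is 1 to 10 counts a library. It was at 0.475 to 8.26 CPM in non-responders, 4.92 to 8.92 in stable tumours and 1.56 to 6.52 in responders, and only the non-responders overlapped controls. Its fitted log2 fold change was 4.76 ± 0.69 in stable tumours, 4.00 ± 0.66 in responders and 3.66 ± 0.66 in non-responders (adjusted p = 8e-06, 1.8e-05 and 0.000793), and 0.34 ± 0.50 between responders and non-responders (adjusted p = 0.587). Tnf was higher by 3.59, 3.20 and 2.74 in the 3 groups, and was called in no comparison among them.

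The genes whose log2 CPM followed each member most closely over the 25 tumours, among 13178 protein-coding genes, are given with Pearson's r and no test, since group differences enter it. Cxcr6 was followed by Cd3g (r = 0.99), Cd96 and Hcst, all T or natural killer cell genes. Cxcl10 was followed by Iigp1 (0.97), Tgtp2 and Irgm1, interferon-induced GTPases. Cxcl9 was followed by Slamf8 (0.98), Serpina3f and Serpina3g, and Cxcl16 by Ptpre (0.99), Cd84 and Ncf1. Ccl5 was followed by Mpeg1 (0.98), a macrophage gene, with Dram1 and Tgm2, and Xcl1 by Clec2d (0.98), Cd96 and Pilra. Cxcr3 had Tnfrsf13b (0.94), Ccr2 and Clec4a3 nearest, Ccl3 had Plek (0.90), Rap1gap2 and Ccrl2, and Ccl4 had Ptpn18 (0.94), Plek and Cmtm6.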

How the data were processed

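RNA was sequenced from 25 tumours. Per the labels' protocols a stranded total RNA kit was used, while the labels give polyA RNA as the molecule. The submitters' processing notes name mm10, bcl2fastq 2.17, Trimmomatic, STAR 2.5.1 and RSEM 1.2.22, without role or order. The authors deposited expected counts per gene for 55450 genes, with 5.64% of values not whole, which were rounded here. The authors also deposited RPKM values for 19518 unique symbols. The gene lengths used are not stated in the labels.

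Counts were filtered with filterByExpr (18031 genes), scaled by TMM and tested with edgeR 4.0.16 (R 4.3.3), using robust quasi-likelihood F tests, 4 group means and 7 contrasts. Tests were two-sided. Correlations used log2 CPM with a prior count of 2, group means removed and 100000 permutations within groups. Ratios were tested with exact permutations of every split. Alternatives were DESeq2 1.42.0, limma 3.58.1 on log2(RPKM + 1), other filters and size factors, protein-coding genes only, adjustment for the protein-coding share, only the groups compared, and each tumour left out. On simulated data for responders minus non-responders (17774 genes), recovery was 87% at 4-fold and 62% at 2-fold, and 2% of calls were false. There 200 genes were changed in responders, and every other gene had the same mean in all groups. In the data 25.2% of genes were called higher in this comparison, so these rates may not carry over to it. By rule the 9 genes are named in every comparison. Of the list of 33, Ccr1, Xcr1, Cxcl11 and Ifng are named by rule, and others where called in any comparison with a log2 fold change of at least 1 in size, except Adam10, named after its value was seen. Some results that this rule or the tests would give are not reported here. The genes, lists and tests were chosen with earlier results of these data known, and the promoter patterns after the files had been seen, each shortened to 9 letters after a first search with longer forms. Precision at low levels is limited by counts as low as 9 for Ccl4 in a responder library.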

Additional observations from a re-analysis of the deposited data

Results flagged for a closer look

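Xcl1 in responder 5 was at 23.2 CPM, while the other 7 responders lay between 4.33 and 8.40 CPM. On the log2 CPM scale its gap to the next tumour was 0.607 of the range of the group, above the critical value of 0.526 for 8 tumours (Dixon). On that scale no other tumour passed in 36 checks of the 9 genes in 4 groups, and chance gives about 1 in 20. On CPM itself 5 passed, this one at 0.784, the others being Cxcr6 in responder 5 (75.5 CPM), Xcl1 in non-responder 6 (19.3 CPM), and Cxcr3 (12.4 CPM) and Ccl4 (1.40 CPM) in control 5. Responder 5 also had the highest protein-coding share of the responders (87.0%) and the highest Cxcr6 (75.5 CPM) and Cxcr3 (18.9 CPM). The part of these values in its Xcl1 level was not tested.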

How the results depend on the processing

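No paired analysis was possible because the replicate numbers follow record order and pair nothing. The counts of members called against controls stayed within 1.5 times under every alternative run. Adjusted for the protein-coding share, edgeR called 0 members in responders minus non-responders (2 at an unadjusted p under 0.05) and 0 in responders minus stable tumours (0 at an unadjusted p under 0.05), where DESeq2 without that adjustment called 1 and 2. With limma on log2(RPKM + 1) the counts were 2 in both, and 5 in stable minus non-responder tumours. In responders minus stable tumours a fit of only the groups compared called 3. Leaving out each tumour gave 1 to 3 members in responders minus non-responders, 0 to 5 in responders minus stable tumours, 2 to 7 in stable minus non-responder tumours, 7 to 9 of the 9 correlation pairs tested and 25 to 36 ratio tests. Of the 9 correlation pairs tested, those past the threshold were 2 with the T cell marker mean removed and 3 with the macrophage marker mean removed, and Cxcl10 with Cxcr3 then turned to -0.13 with the former. The cause of these changes was not tested.

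Signs turned only for members not called. In responders minus non-responders these were, under the stricter filter, Cxcl10 (0.036) and Cxcr3 (0.010). With the share as a covariate they were Cxcl9 (0.39), Cxcl10 (0.28), Cxcr3 (0.63) and Ccl4 (0.14). With limma they were Cxcl9 (0.18), Cxcl10 (0.25) and Ccl4 (0.057). In responders minus stable tumours the covariate gave Cxcr3 0.14 and Cxcr6 0.017. Leaving out a tumour turned the sign in responders minus non-responders for Cxcl9 (-0.30 to 0.26), Cxcl10 (-0.26 to 0.43), Cxcr3 (-0.32 to 0.071), Ccl4 (-0.53 to 0.36) and Xcl1 (-0.050 to 1.29). In the RPKM table Adgre1 is not listed, so ratios there used Csf1r and Cd68. Low counts limit Ccl3, Ccl4, Xcl1, Ifng, Ccr4 and Ccr8 in controls.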
